A study of Mus musculus with 6 samples.

Results

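H3K9me3 stood high without H3K27me3 in 1633 of the 1236182 autosomal tiles of 2 kb, or 0.132% of them, in mouse embryonic stem cells (ESCs) that lack Dicer. These tiles were chosen by their deposited levels, the log2 of observed over expected reads. The mean of the 2 H3K9me3 libraries had to be at least 1.5 and the mean of the 2 H3K27me3 libraries below 1. Adjacent tiles were merged, which gave 1347 domains covering 3266 kb. Because H3K9me3 and H3K27me3 chose the tiles, their levels are given as a description, as are the differences in these marks between genotypes. H3K9me2, the annotation and the sequence were not used by the rule.

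ChIP-seq of H3K9me3, H3K27me3 and H3K9me2 came from 6 libraries, 1 for each mark in Dicer KO ESCs and 1 in Dicer KO/Dnmt1 cKO ESCs. Both genotypes derive from the Dnmt1 loxP/loxP line and carry a constitutive deletion of Dicer, made by CRISPR/Cas9. The Dicer KO/Dnmt1 cKO cells in addition lost Dnmt1 after Cre was induced with tamoxifen, and the day of harvest is not in their labels. The labels name E14 as the background strain whereas the methods name C57BL/6, and Dicer KO cells stand here as the control, so no wild-type cells enter any comparison. As each mark was read once in each genotype, the differences below have no replicate check and no p-value, and the 95% intervals cover counting error only. The libraries held 16834940 to 27162045 reads, and the median autosomal tile held 13 to 19 reads.

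H3K9me3 marks constitutive heterochromatin. In ESCs it is laid down largely by SETDB1, which KRAB zinc finger proteins and their partner TRIM28 bring to retrotransposons. ZFP57 and ZFP445 are proteins of this kind that bind imprinting control regions on the methylated parental copy, and ZFP57 recognises the word TGCCGC when its CpG is methylated. H3K27me3 is the mark of Polycomb repressive complex 2, and H3K9me2 is spread broadly by EHMT1 and EHMT2. Intracisternal A particles (IAPs) are endogenous retroviruses whose long terminal repeats (LTRs) drive their transcription.

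The sequences below show the 2 features of sequence that recurred in these tiles. The first set comes from tiles at imprinted genes and from the gene of a zinc finger protein, and each is the stretch of 200 bases with most copies of TGCCGC in its tile. Capitals mark TGCCGC or its reverse complement GCGGCA. All are from the NCBIM37 reference. The window upstream of Meg3 lay outside annotated genes, those of Mest and Zfp629 overlapped an exon, those of Snrpn and Plagl1 were intronic, and that of Airn lay in introns of both Airn and Igf2r, which run in opposite directions.
Upstream of Meg3, chr12:110766455-110766654, plus strand: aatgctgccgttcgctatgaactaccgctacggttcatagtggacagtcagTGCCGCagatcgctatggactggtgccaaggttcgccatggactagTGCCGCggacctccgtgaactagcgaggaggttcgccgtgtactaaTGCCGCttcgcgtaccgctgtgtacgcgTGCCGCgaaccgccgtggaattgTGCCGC
Mest, chr6:30688095-30688294, plus strand: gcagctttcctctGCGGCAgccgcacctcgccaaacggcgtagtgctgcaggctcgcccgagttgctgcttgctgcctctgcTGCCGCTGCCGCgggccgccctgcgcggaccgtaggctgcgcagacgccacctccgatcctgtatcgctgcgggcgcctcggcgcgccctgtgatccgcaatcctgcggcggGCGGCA
Snrpn, chr7:67149211-67149410, plus strand: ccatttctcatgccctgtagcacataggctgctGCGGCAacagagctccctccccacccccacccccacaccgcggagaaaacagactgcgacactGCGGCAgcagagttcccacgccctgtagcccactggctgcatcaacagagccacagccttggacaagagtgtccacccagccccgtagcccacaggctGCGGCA
Airn and Igf2r, chr17:12935051-12935250, plus strand: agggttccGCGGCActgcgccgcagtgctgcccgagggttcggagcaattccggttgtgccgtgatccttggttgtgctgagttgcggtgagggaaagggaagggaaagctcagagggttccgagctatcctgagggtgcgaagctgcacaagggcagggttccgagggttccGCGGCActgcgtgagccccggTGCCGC
Plagl1, chr10:12810864-12811063, plus strand: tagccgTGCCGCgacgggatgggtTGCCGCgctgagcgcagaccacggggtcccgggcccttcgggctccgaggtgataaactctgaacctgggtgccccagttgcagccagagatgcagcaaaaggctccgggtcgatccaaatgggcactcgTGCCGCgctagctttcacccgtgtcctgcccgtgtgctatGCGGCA
Zfp629, chr7:134755070-134755269, plus strand: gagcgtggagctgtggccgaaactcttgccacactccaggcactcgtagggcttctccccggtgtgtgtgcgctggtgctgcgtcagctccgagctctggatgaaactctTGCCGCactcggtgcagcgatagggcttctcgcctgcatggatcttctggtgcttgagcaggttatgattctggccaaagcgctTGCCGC

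The tile upstream of Meg3 held 5 copies of the word, all within its window. Tiles of Snrpn and of Airn each held 8 copies, Mest held 7, and Plagl1 and Zfp629 held 6 each. H3K9me3 in these tiles was 157 reads in Dicer KO cells and 123 in Dicer KO/Dnmt1 cKO cells upstream of Meg3, and 170 and 137 reads at Zfp629. These counts lay above the 50.2 and 52.3 reads at which a tile reaches a level of 1.5 in the 2 libraries. So did those of Mest (96 and 56) and Airn (104 and 73). Snrpn (84 and 50 reads) and Plagl1 (76 and 39) lay above it in the Dicer KO library only. The rule set the minimum on the mean of the 2 libraries, not on each.

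The second set holds 4 words of 16 bases. They are those in most member tiles among 12 words, which were picked in turn to cover further tiles from the 1241 that recurred in at least 25 member tiles and were at least 10-fold more frequent there than in all autosomal tiles. Each is shown in 100 bases from the member tile with the highest H3K9me3 level that holds it, with 1 chromosome left aside. Capitals mark the word. The first and second of these words are known from the LTR of IAPs, and no identity is given for the other two. The window on chromosome 4 lay in an intron of the gene model Gm16889, that on chromosome 1 in an intron of Smyd3, and the other two outside genes.
Word in 172 member tiles, chr4:146847189-146847288, minus strand: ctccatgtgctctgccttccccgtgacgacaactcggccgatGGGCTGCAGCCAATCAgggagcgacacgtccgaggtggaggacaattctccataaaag
Word in 143 member tiles, chr3:144281935-144282034, plus strand: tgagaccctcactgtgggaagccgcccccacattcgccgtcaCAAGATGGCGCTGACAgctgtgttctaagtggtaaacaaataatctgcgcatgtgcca
Word in 75 member tiles, chr1:181198739-181198838, minus strand: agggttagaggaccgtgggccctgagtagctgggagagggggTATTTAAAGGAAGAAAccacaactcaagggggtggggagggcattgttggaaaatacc
Word in 56 member tiles, chr3:106050014-106050113, plus strand: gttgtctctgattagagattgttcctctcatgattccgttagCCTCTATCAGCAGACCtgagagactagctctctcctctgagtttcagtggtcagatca

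Members formed small islands. Of the 1347 domains, 1135 (84.3%) were 1 tile wide, 163 were 4 kb, 34 were 6 kb and 11 were 8 kb, and 1 each was 10, 12, 14 and 16 kb. H3K9me3 levels of the tiles had a median of 1.67, with 221 tiles at 2 or more and 8 tiles at 3 or more. Per library, the median level was 1.81 in the Dicer KO, at 62 reads, and 1.60 after loss of Dnmt1 as well, at 56 reads. The threshold cut through a continuous distribution, since 532 tiles lay at 1.5 to 1.6 and 767 at 1.4 to 1.5. The 3 tiles just inside had a mean level of 1.5009 (73 and 36 reads) and 1.5020 (56 and 47 reads in both others), and the 3 just outside had 1.4998, with 41 and 64 reads in 1 of them and 64 and 41 reads in the other two. Counting the rule in each genotype by itself gave 2599 tiles in Dicer KO cells and 1296 in Dicer KO/Dnmt1 cKO cells, of which 956 were shared (36.8% and 73.8% of the lists).

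**Figure D1:**
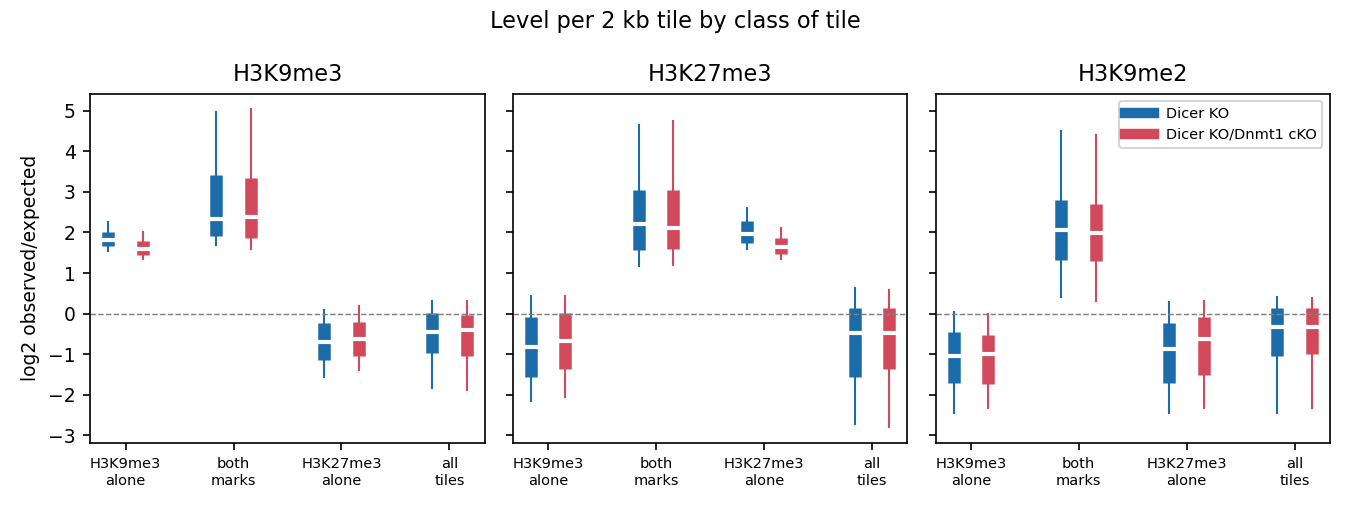
Level of each mark (log2 observed/expected, y axis) in tiles rich in H3K9me3 alone (n = 1633), in both marks (n = 369), in H3K27me3 alone (n = 7620) and in all autosomal tiles, for Dicer KO (blue) and Dicer KO/Dnmt1 cKO (red). Thin lines run from the 10th to the 90th percentile, bars from the 25th to the 75th and white ticks mark the median. H3K9me2, which did not choose the tiles, has a median of -1.04 and -1.0 in tiles rich in H3K9me3 alone and of 2.07 and 2.0 in tiles rich in both marks.

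H3K9me2 was low in most tiles where H3K9me3 stood alone. The median H3K9me2 level over the 2 libraries was -1.07 in members and -0.29 in all autosomal tiles, and 53.9% of members lay below -1 against 24.7% of all tiles. The counts behind these levels were small, with a median of 8 reads in Dicer KO cells and 10 in Dicer KO/Dnmt1 cKO cells. A level of 1 or more was reached by 34 members (2.08%), compared with 0.125% of all autosomal tiles. In the 369 tiles rich in both H3K9me3 and H3K27me3 the picture was another, with a median H3K9me2 level of 2.05 and 82.4% of tiles at 1 or more. Tiles rich in H3K27me3 alone had a median H3K9me2 level of -0.79. H3K27me3 itself, bounded by the rule, had a median level of -0.76 in members, and 22.4% of them lay at 0 or more. A tile rich in both methyl marks on H3K9 was Eef2, the gene of a translation elongation factor, with an H3K9me3 level of 1.73 and an H3K9me2 level of 1.30. Its H3K27me3 level of 0.55 also lay above the median of -0.47 in all autosomal tiles.

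Around the 1135 domains that were 1 tile wide, H3K9me3 dropped sharply with distance. Summed reads were 4.63-fold over the genome mean at the tile in Dicer KO cells and 4.00-fold in Dicer KO/Dnmt1 cKO cells. In the tile before it they were 2.39- and 2.15-fold, in the tile after it 2.43- and 2.17-fold, and at a distance of 20 kb between 1.21- and 1.23-fold. The neighbours of a domain that is 1 tile wide lie under the threshold by construction, or carry H3K27me3. H3K9me2 had its lowest value at the same tile, at 0.77- and 0.74-fold, and stood at 1.05-fold at 20 kb on either side. H3K27me3, which the rule bounded, stood at 0.90- and 0.95-fold at the tile. In the tile before it H3K27me3 was at 0.83- and 0.86-fold, and in the tile after it at 0.88- and 0.91-fold. At 20 kb it was between 1.04- and 1.07-fold. The profile therefore showed a local dip around the H3K9me3 peak in both genotypes, of H3K9me2 and also of H3K27me3. The part of discarded reads of low mapping quality in this dip was not tested.

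**Figure D2:**
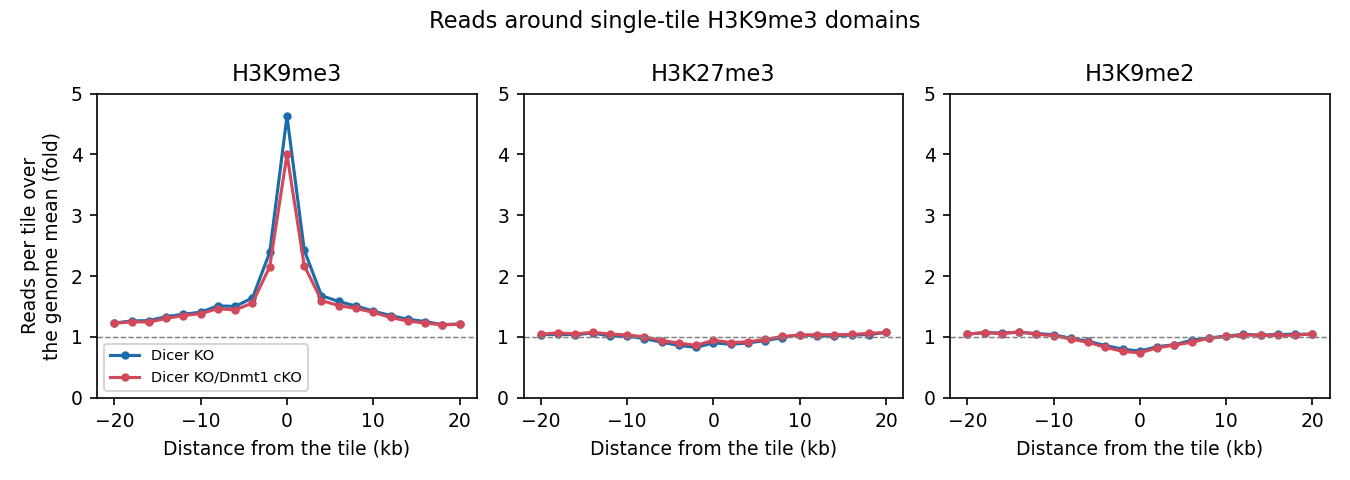
Reads per tile over the genome mean (fold, y axis) against distance from the tile (kb, x axis) for 1135 domains that are 1 tile wide, in Dicer KO (blue) and Dicer KO/Dnmt1 cKO (red). H3K9me3 peaks at 4.63- and 4.00-fold, while H3K9me2 is at 0.77- and 0.74-fold at the same place. The dashed line marks the genome mean.

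Members lay mostly between genes. Of the 1633 tiles, 1126 (69.0%) overlapped no annotated gene, compared with 57.5% of all autosomal tiles. A further 300 (18.4%) lay in introns, 142 (8.70%) overlapped an exon and 65 (3.98%) a transcription start site (TSS). The 221 members with an H3K9me3 level of 2 or more went the other way. Of these, 46.6% overlapped a gene body, compared with 42.5% of all autosomal tiles. Tiles at the TSS of a protein-coding gene made up 2.33% of members, 3.08% of all autosomal tiles and 24.6% of tiles rich in H3K27me3 alone. Domains without a gene, 942 of the 1347, lay at a median distance of 34.5 kb from the nearest protein-coding gene. Member tiles were found on all 19 autosomes and in 831 of 2482 intervals of 1 Mb. The density was highest on chromosome 4, with 194 tiles per 100000, and on chromosome 14, with 193, and lowest on chromosome 19, with 88.0. The interval chr4:146000001-147000000 held most, with 30 member tiles, followed by chr13:12000001-13000000 with 14.

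The widest domain spanned 16 kb at chr13:12916001-12932000, 23.7 kb from Prl2c3, a gene of the prolactin family. It held 675 H3K9me3 reads in Dicer KO cells and 588 in Dicer KO/Dnmt1 cKO cells, a log2 change of -0.26 (95% interval -0.42 to -0.10). The next, 14 kb at chr3:106048001-106062000 near the chitinase-like gene Chi3l3, held 592 and 530 reads. A domain of 12 kb at chr4:146838001-146850000 in Gm16889 held 595 and 507 reads and 187 CpG, and the domain of 10 kb lay 4.36 kb from Ccdc11. Repeated sequence, counted as the share of 16-base words that occur at least 100 times in the reference, was 32.1%, 32.5% and 39.9% in the 3 domains with coordinates. It was 14.03% in the domain near Ccdc11, close to the median of 14.1% over member tiles.

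Domains of 8 kb did not all lie in repeats. At chr12:110762001-110770000, 9.21 kb upstream of the maternally expressed noncoding RNA gene Meg3, H3K9me3 was 460 and 363 reads, with 167 CpG and 4.06% of repeated words. The domain at chr8:125950001-125958000, in the readthrough gene model Gm20388, held 300 CpG and 1.11% of repeated words, and H3K9me3 was 310 reads in Dicer KO cells and 374 in Dicer KO/Dnmt1 cKO cells. The other 8 kb domains by the naming rule lay near Gm13247, near Gm13151, near Dock9, an activator of the GTPase Cdc42, and near Csrp2, a gene of a LIM domain protein.

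Of the 10 domains with the highest tiles, 7 were 6 or 8 kb wide, compared with 49 of all 1347 domains that were 6 kb or wider. A wider domain has more tiles from which its highest is taken, and width and level both come from H3K9me3. The comparison is thus a description and no link between height and width is drawn from it. A tile of the 4 kb domain at chr7:89918001-89922000 in Eftud1, a gene of ribosome maturation, reached 3.94, and the domain held 377 and 308 reads. At chr2:57482001-57484000, 259 kb from the nearest protein-coding gene, Gpd2, the level was 3.81, and 89.6% of its words were repeated. The domain at chr11:3000001-3006000, at the first sequenced bases of the chromosome, reached 3.70. Together 47 members lay in the first 1 Mb of sequence on 13 chromosomes. H3K9me2 was not low in all of the domains named here. Its mean level was -1.19 in the Eftud1 domain, but 1.35 at chr2:57482001-57484000 and 1.03 at chr11:3000001-3006000.

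Members in genes were spread thinly. A member tile lay in the body of 386 of the 34653 annotated autosomal genes (1.11%), 315 of them protein-coding (1.47% of 21418). Of these 315 genes, 233 held 1 member tile and 27 held 3 or more. Gm20388, a gene model of 4435 kb, held 10, the heparan sulfate sulfotransferase gene Hs6st3 held 8, and Chi3l3 and Gm6804 held 5 each. Il3ra, the receptor gene for interleukin 3, Ezr, which encodes the membrane linker ezrin, AK129341, Ccdc11, the nephrocystin gene Nphp4, the adhesion gene Sdk1 and the glypican gene Gpc6 held 4 each. The long genes Sdk1 and Gpc6 span 974 and 1054 kb, whereas the 4 tiles of Il3ra lay in 9.0 kb.

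Recurring words covered a part of the members. The word printed first above lay in 172 members (10.5%) and in 0.527% of all autosomal tiles, and the second in 143 (8.76%) and 0.428%. Of the tiles with the first word, 120 held the second too. The word seen on chromosome 1 above lay in 75 members (4.59%) against 0.0646% of all tiles. At least 1 of the 12 words was found in 524 members (32.1%), and 843 members (51.6%) held one of them or lay next to a tile that did, compared with 3.39% of all autosomal tiles. The words were picked on these tiles, so the shares are a description.

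Holding such a word did not place a tile among the members. Of all 6516 autosomal tiles with the first word, 172 (2.64%) were members. The median H3K9me3 level of the 6516 tiles was 0.07, above the -0.43 of all autosomal tiles. Their median H3K9me2 level of -2.02 and H3K27me3 level of -1.65 lay below the -0.29 and -0.47 of all autosomal tiles. Reads of low mapping quality had been discarded by the authors, and its part in these levels was not tested. Among the 12 words, the one with the largest share of member tiles among its own was acacagatcctgaatc, in 159 tiles of which 27 (17.0%) were members.

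Sequence composition of the members differed from that of the genome and of the Polycomb tiles. Members held a median of 23 CpG and 45.1% GC, all autosomal tiles 14 and 41.6%, and tiles rich in H3K27me3 alone 38 and 52.1%. The median share of repeated words was 14.1% in members, 7.95% in all tiles and 2.35% in tiles rich in H3K27me3 alone. TGCCGC on either strand was found in 32.8% of members, 10.8% of all autosomal tiles and 39.2% of tiles rich in H3K27me3 alone. Per 1000 CpG this came to 21.8, 7.73 and 11.8 copies, respectively. At least 3 copies were held by 72 members (4.41%), by 0.277% of all tiles and by 5.12% of tiles rich in H3K27me3 alone. At least 5 were held by 26 members (1.59%), by 0.0285% of all tiles and by 0.919% of tiles rich in H3K27me3 alone. The tile with most copies in the genome was a member, chr1:173420001-173422000, which held 37 copies and 112 and 86 H3K9me3 reads.

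Imprinted genes carried these tiles often. Of 37 listed imprinted genes found in the annotation (39 listed), 21 had a member tile in the gene or within 5 kb, or 56.8%, compared with 1.78% of all 34653 genes. The list was drawn from general knowledge with earlier results of these data in view, and imprinted genes were longer, with a median of 14 tiles against 4 for all genes. These genes fell into 15 loci, and TGCCGC was present in the highest tile of 14 of them, at a median of 5 copies, compared with 32.8% of all members. The median number of CpG was 78 in these tiles and 23 in all members. Tiles of like CpG content were not set beside them. H3K9me2 was low around these genes, at a median level of -2.23, with 105 reads in Dicer KO cells and 144 in Dicer KO/Dnmt1 cKO cells over 23 member tiles. Listed genes without a member tile included Cdkn1c, Dlk1, Ndn, Rasgrf1, Slc38a4 and Zdbf2. Grb10, which encodes an adaptor that restrains growth, had 99 and 63 H3K9me3 reads in its highest tile, but an H3K27me3 level of 1.61 kept it out.

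The highest of these tiles lay in Cdh15, a cadherin gene, with a level of 2.74. Next came the tile shared by Herc3 and the histone chaperone gene Nap1l5 at 2.45, and that shared by the antisense RNA gene Airn and the growth factor receptor gene Igf2r at 2.27. Peg3, a zinc finger gene expressed from the paternal copy, had 2.13, and the tile of Gnas, which encodes a G protein subunit, and its antisense partner Nespas had 2.10. Lower in the order stood Mest at 2.02, Inpp5f at 2.00 and Nnat with Blcap at 1.93.

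Zinc finger genes named Zfp carried a member tile in the body in 13 of 367 cases (3.54%), compared with 1.47% of all protein-coding genes, and 17 had one in the body or within 5 kb (4.63%), compared with 2.10%. In 7 of the 13 (53.8%) a member tile overlapped the last exon, which in these genes usually encodes the zinc fingers, compared with 20% of all protein-coding genes that held a member. The share of the gene taken up by the last exon was not taken into account in either figure. Zfp629 stood first, with 3 adjacent tiles and a top level of 3.07. Zfp11, Zfp420, Zfp445 and Zfp462 held 2 member tiles each, and the other 8, Zfp13, Zfp180, Zfp385c, Zfp600, Zfp609, Zfp668, Zfp777 and Zfp787, held 1. Those of Zfp11, Zfp13, Zfp180, Zfp629, Zfp668, Zfp777 and Zfp787 lay at the last exon. Zfp445, the gene of the imprinting factor named above, had 70 and 62 H3K9me3 reads in its highest tile.

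Counts in other families were small. Of 27 germline genes found (28 listed), whose promoters DNA methylation is known to silence, 3 (11.1%) had a member tile in the body, compared with 1.47% of protein-coding genes. They were Fkbp6 at 1.79, Stk31 at 1.64 and Mov10l1, an RNA helicase gene of the piRNA pathway, at 1.60. The highest tile held the annotated start of the gene at Fkbp6, but lay inside the gene away from it at Stk31 and Mov10l1. The germline genes were also longer, with a median of 15 tiles against 9 for protein-coding genes. Pluripotency genes had none of 18, genes of the H3K9 and DNA methylation machinery none of 22, and housekeeping genes 1 of 12 (8.33%), which was Eef2. At a share of 1.47%, a count of 0 in lists this short cannot be told from the background. In the machinery list, counting the body and 5 kb on either side, Cbx3 had the highest tile, at 1.23, and Dicer1 reached 0.85 and Dnmt1 -0.09. In each of these genes that tile lay outside the body. No member lay in the body of any of 25 clustered Pcdh genes, 42 Hox genes or 435 Vmn1r and Vmn2r genes, and 1 of 1243 Olfr genes (0.0805%) held one. Within 5 kb there was a member for 6 of the Vmn1r and Vmn2r genes (1.38%) and 5 of the Olfr genes (0.402%), compared with 2.10% of protein-coding genes.

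H3K9me3 in the members was lower once Dnmt1 was lost too. The tiles held 108406 reads in the Dicer KO (0.597% of the library) and 96588 (0.510%) in the Dicer KO/Dnmt1 cKO, a log2 change of -0.23 (95% interval -0.24 to -0.21). Of the 1633 tiles, 372 (22.8%) were higher in the Dicer KO/Dnmt1 cKO, compared with 50.9% of all autosomal tiles with at least 20 reads over both libraries. Large differences were few, as 8 members were at least 2-fold lower and 0 at least 2-fold higher, against 3.26% and 3.3% of all such tiles, most of which held fewer reads. The difference was small and seen in 1261 of the tiles.

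The size of the difference followed the H3K9me3 level. In tiles with H3K27me3 below 1, the log2 change was -0.01 at a level of 0 to 0.5, -0.06 at 0.5 to 1, -0.15 at 1 to 1.5, -0.21 at 1.5 to 2 and -0.29 at 2 or more. Tiles rich in both marks did not share it, at 0.04 (0.04 to 0.04) for their summed reads. That sum rests mainly on tiles with very many reads. The 369 tiles held 936283 H3K9me3 reads in Dicer KO cells, but a median of 90 per tile. The median change per tile was -0.0041, compared with -0.22 in members, and 49.1% of these tiles were higher in the Dicer KO/Dnmt1 cKO. H3K9me3 in tiles rich in H3K27me3 alone did not share it either, at 0.07 (0.06 to 0.09). In the latter tiles H3K27me3, the mark that chose them, had a log2 change of -0.37. More tiles met the rule in the Dicer KO library than in the other, and the part of immunoprecipitation efficiency was not tested and cannot be told apart from genotype with 1 library each.

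**Figure D3:**
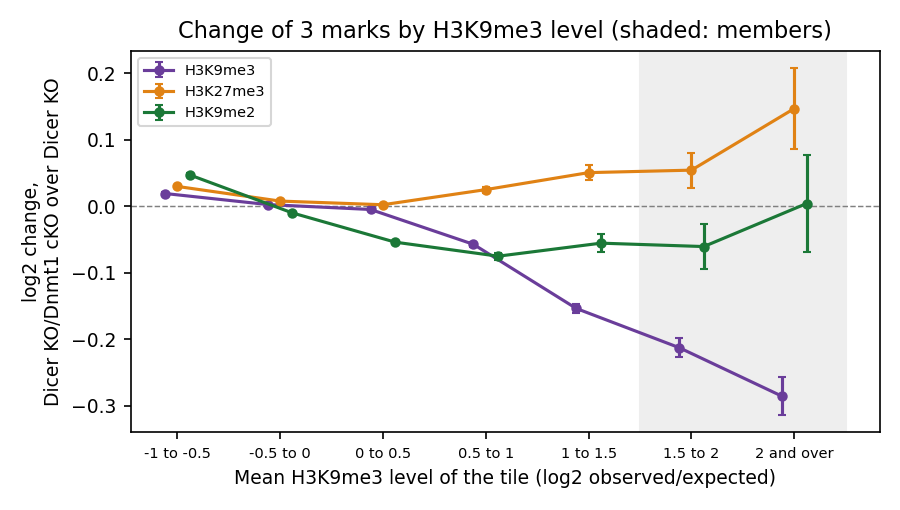
Log2 change in the Dicer KO/Dnmt1 cKO over the Dicer KO (y axis) of the summed reads of 3 marks, for autosomal tiles with H3K27me3 below 1 grouped by their mean H3K9me3 level (x axis). Bars are 95% counting intervals and the shaded groups are the members. H3K9me3 goes from -0.01 at a level of 0 to 0.5 down to -0.29 at 2 or more, while H3K27me3 stands at 0.15 in the last group.

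H3K27me3 and H3K9me2 differed less. H3K27me3 in the members was 30245 and 24853 reads, a log2 change of 0.07 (0.04 to 0.09) after scaling to library totals. At least 20 reads were held by 1167 members, of which 658 (56.4%) were higher in the Dicer KO/Dnmt1 cKO against 50.7% of all tiles, 54 (4.63%) at least 2-fold higher against 2.9%, and 20 (1.71%) at least 2-fold lower against 2.32%. H3K9me2 was 16234 and 19103 reads, a log2 change of -0.05 (-0.08 to -0.02), and the interval included 0 with an H3K27me3 ceiling of 0 or an H3K9me3 minimum of 2. Of 709 members with at least 20 H3K9me2 reads, 328 (46.3%) were higher against 49.2% of all tiles, 30 (4.23%) at least 2-fold higher against 3.39%, and 33 (4.65%) at least 2-fold lower against 2.62%.

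Among domains, 1054 of 1347 had less H3K9me3 in the Dicer KO/Dnmt1 cKO. The interval lay below 0 in 238 (17.7%) and above 0 in 9 (0.668%). Counted by tile, it lay below 0 in 262 members (16%) and above 0 in 11 (0.674%), compared with 14.9% and 1.65% of the 2369 autosomal tiles with at least 100 reads over both libraries, a group that includes the 1633 members. In the 369 tiles rich in both marks the shares were 6.78% and 5.69%. Of the 223 domains with at least 200 reads, 201 were lower, 88 of them with an interval below 0, and 1 was higher with an interval above 0. Intervals are narrower at this depth and no share over all tiles was computed for it. The 88 therefore cannot be set against the 14.9%.

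The domain with the lowest ratio lay over Nnat, which encodes a proteolipid of neurons, and Blcap, in whose intron Nnat sits, at chr2:157384001-157388000. It held 177 reads in Dicer KO cells and 90 in Dicer KO/Dnmt1 cKO cells, a log2 change of -1.04 (-1.40 to -0.67), with 8 copies of TGCCGC. At chr17:6942001-6946000, over the end of Ezr and in Sytl3, a gene of vesicle traffic, reads were 190 and 106 (-0.90, -1.25 to -0.56). The repeat tile at chr2:57482001-57484000 held 333 and 195 reads, and the domain in D6Wsu116e at chr6:116190001-116194000 held 169 and 99, with 12 copies of TGCCGC. The fifth, at chr4:3104001-3108000, held 206 and 122 reads and both words known from IAPs.

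Domains with more H3K9me3 in the Dicer KO/Dnmt1 cKO showed smaller differences. At chr1:87776001-87780000, near Itm2c, reads were 98 and 134, a log2 change of 0.39 (0.02 to 0.77). The interval reached below 0 in the next 4, at chr5:146488001-146492000 (104 and 131 reads), in Gm20388 (310 and 374), in the scaffold gene Magi2 (106 and 126) and at chr11:3000001-3006000 (455 and 509). Of the genes with most member tiles, Ezr held 351 and 190 reads over its 4 tiles (-0.95, -1.20 to -0.69) and Polrmt, the mitochondrial RNA polymerase gene, 342 and 218 over 3 (-0.71, -0.96 to -0.46). H3K27me3 in the tiles of Polrmt went the other way, from 14 reads to 32 (1.54, 0.64 to 2.45). The interval included 0 in Hs6st3, whose 8 tiles held 532 and 524 H3K9me3 reads (-0.08, -0.26 to 0.09), and in Il3ra, with 313 and 327 (0.0027, -0.22 to 0.23). That of Hs6st3 also includes the -0.23 of all members.

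For H3K27me3 only 8 domains held 200 reads and for H3K9me2 only 6. Of these the domain in Gm20388 had the largest H3K27me3 ratio, 124 and 126 reads (0.38, 0.02 to 0.73), and the domain at chr11:3000001-3006000 the lowest H3K9me2 ratio, 132 and 123 reads (-0.39, -0.74 to -0.03). In the others the interval held 0. The 3 tiles of Gm15951, at chr4:146892001-146898000, stood lowest for H3K27me3, with 127 and 87 reads (-0.19, -0.59 to 0.20).

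The highest member tile of each of the 15 imprinted loci had less H3K9me3 in the Dicer KO/Dnmt1 cKO. The median log2 change was -0.64, and in 10 of them the interval lay below 0. Over all member tiles the median was -0.22, and the interval lay below 0 in 16% of them. It did so in 14.9% of all autosomal tiles with at least 100 reads over both libraries. Plagl1, a growth-restraining zinc finger gene, held 76 and 39 reads (-1.02, -1.58 to -0.47). Mest, a paternally expressed gene, held 96 and 56 reads (-0.84, -1.31 to -0.36), and Snrpn, of the Prader-Willi region, 84 and 50 (-0.81, -1.31 to -0.30).

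Other tiles of the list followed at smaller ratios. Inpp5f held 92 and 57 reads, the tile shared by Commd1 and Zrsr1 74 and 47, the tile upstream of H19 82 and 53, Cdh15 148 and 99, Airn with Igf2r 104 and 73, and Gnas with Nespas 92 and 66. The interval included 0 at Meg3 (65 and 51 reads), Peg10 with Sgce (69 and 58), Herc3 with Nap1l5 (107 and 92), Peg3 (85 and 74) and Trappc9 (67 and 66). In the 8 kb domain upstream of Meg3 the log2 change was -0.40 (-0.60 to -0.20). Levels at this depth cannot order neighbouring loci, since most of their intervals overlap.

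**Figure D4:**
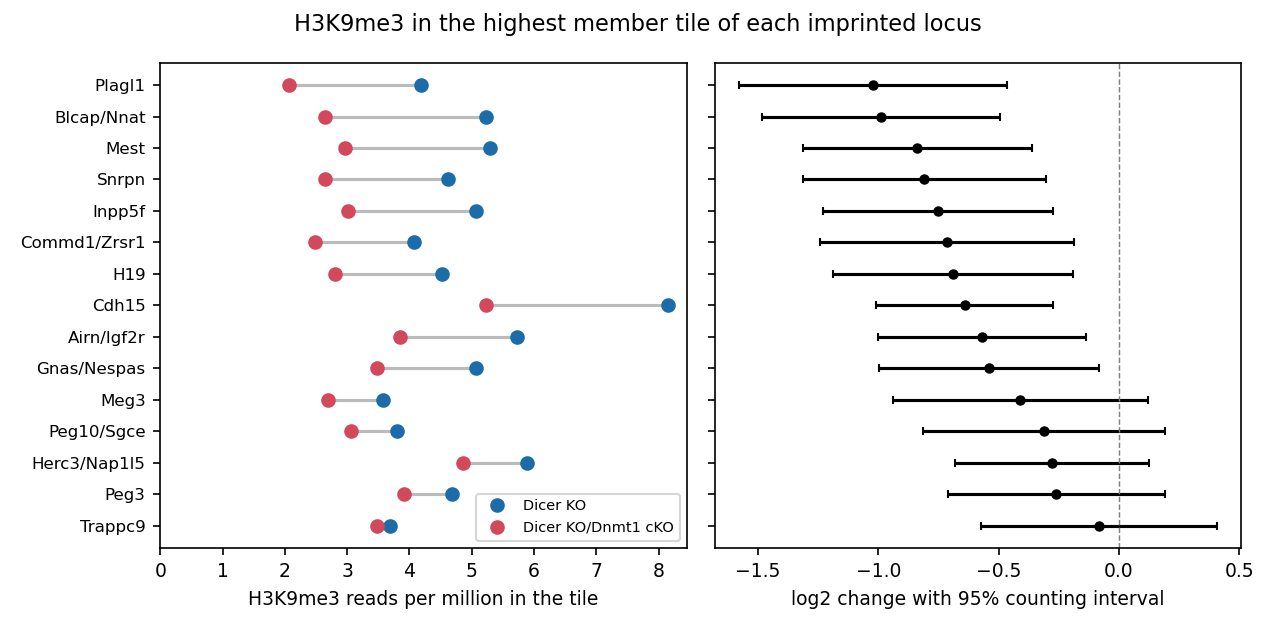
H3K9me3 in the highest member tile of each of 15 imprinted loci, as reads scaled to the library total in Dicer KO (blue) and Dicer KO/Dnmt1 cKO (red) on the left and as log2 change with its 95% counting interval on the right. All 15 changes are below 0, from -1.02 at Plagl1 to -0.08 at Trappc9.

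Groups of members differed in the size of the H3K9me3 change. The 23 member tiles within 5 kb of a listed imprinted gene held 1940 and 1374 reads (-0.56, -0.66 to -0.46), and 22 of them were lower. The 19 member tiles in Zfp genes held 1585 and 1216 reads (-0.44, -0.55 to -0.33). In their highest tile, the interval lay below 0 for Zfp462 (79 and 41 reads), Zfp13 (111 and 59), Zfp668 (74 and 40), Zfp11 (97 and 62), Zfp777 (100 and 67), Zfp180 (83 and 61), Zfp600 (116 and 90) and Zfp629, and it included 0 in the other 5 of the 13 genes. Among all member tiles the interval lay below 0 in 16%. The 38 tiles at the TSS of a protein-coding gene held 3099 and 2339 reads (-0.47, -0.54 to -0.39), beside an H3K27me3 change of 0.24 (0.09 to 0.40). The 72 tiles with at least 3 copies of TGCCGC had a log2 change of -0.41 (-0.47 to -0.36). These groups overlap in part.

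Groups by other features stood nearer to the value of all members. The log2 change was -0.19 (-0.23 to -0.15) in the 172 tiles with the first IAP word and -0.23 (-0.25 to -0.22) in the 1109 tiles with none of the 12 words. It was -0.26 in gene bodies and -0.21 outside genes. Members with 45 or more CpG had a log2 change of -0.28 (-0.32 to -0.25) and members with fewer than 15 one of -0.22 (-0.24 to -0.19). The 34 members with an H3K9me2 level of 1 or more had the smallest change of these groups, at -0.08 (-0.15 to -0.01). Their H3K27me3 was high for members too, at a median level of 0.68 against -0.76 in all members.

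**Figure D5:**
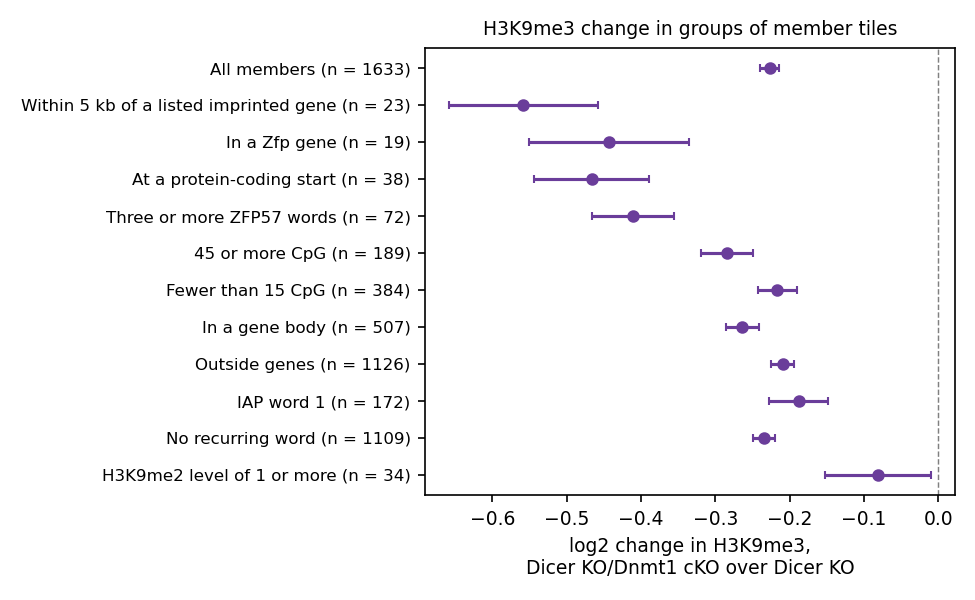
Log2 change in H3K9me3 (x axis, Dicer KO/Dnmt1 cKO over Dicer KO) of the summed reads in groups of member tiles, with 95% counting intervals and the number of tiles in brackets. Tiles near listed imprinted genes stand at -0.56, all members at -0.23 and members with high H3K9me2 at -0.08. The ZFP57 word is TGCCGC.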

How the data were processed

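H3K9me3, H3K27me3 and H3K9me2 ChIP-seq was done in Dicer KO and Dicer KO/Dnmt1 cKO ESCs, 1 library each. The authors used Trim Galore for trimming and Bowtie2 for alignment to NCBIM37, kept alignments of mapping quality 20 or more, and deposited log2 observed over expected reads per tile from SeqMonk. The methods name 1 kb tiles and the file holds 2 kb tiles. Of 25 value columns, 6 matched the samples' labels and 19 were not used here. Whole reads were recovered, since each value was a multiple of the worth of 1 read and empty tiles stood at 0.9 of it (at most 1 value per library lay over 0.1 reads from a whole number). Genes came from GENCODE vM1, and chromosome lengths matched in all 22 sequences. Changes are log2 ratios of summed reads over library totals with 95% counting intervals. Single-tile changes took tiles with at least 20 reads and 0.5 added. Python 3.11.15, numpy 2.4.6, pandas 2.3.3 and numba 0.67.0 were used, and recovery of reads was tested on simulated data. Genes and domains were named by a set rule: the widest domains, the genes with most member tiles, the domains of at least 200 reads with the largest changes, and list members with a member tile. The domains with the highest tiles, the tile with most TGCCGC, Zfp385c, Zfp609, Zfp668 and the listed genes without a member tile were added after values were seen. Tiles, lists and rules were chosen with earlier results of these data known.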

Additional observations from a re-analysis of the deposited data

How the results depend on the processing

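The H3K9me3 change of the members stayed negative under all 7 alternatives, and the H3K27me3 change stayed positive under its 7. Of 43 values recomputed under an alternative, 25 stayed within the 95% interval of the main value or, for a count, within 1.5 times of it, and 17 moved beyond. Counts within that range still differed, as 14 to 17 listed imprinted genes against 21, and 1267 tiles in 1078 domains with an H3K27me3 ceiling of 0. An H3K9me3 minimum of 2 left 221 tiles in 179 domains, 9 listed imprinted genes and 5 Zfp genes, with 46.6% of tiles in gene bodies, a median of 10.3% repeated words, a median H3K9me2 level of -0.99, an H3K9me3 change of -0.29 and an H3K27me3 change of 0.15. The H3K9me2 change then turned from -0.05 to 0.0040 (-0.07 to 0.08), and it was -0.03 (-0.07 to 0.0068) with an H3K27me3 ceiling of 0. The cause was not tested. A minimum met by each H3K9me3 library left 956 tiles in 815 domains with an H3K9me3 change of -0.17. An H3K27me3 ceiling of 0 gave an H3K9me3 change of -0.25, an H3K27me3 change of 0.11, a median H3K9me2 level of -1.23 and 15.7% repeated words, and with the median log2 ratio of all autosomal tiles set to 0 the H3K9me3 change was -0.24. No paired analysis was possible because there is 1 library for every group, and no library could be left out. A tile at the threshold holds about 50.2 reads, so single tiles are imprecise, and H3K9me2 in members rests on a median of 8 to 10 reads a tile.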

Other observations

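On the sex chromosomes, which the rule left out, 8 of 83326 tiles of X and 2 of 7952 tiles of Y met the same thresholds.

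Members rich in TGCCGC were not all at imprinted genes. After the tile with 37 copies, the tile at chr8:79972001-79974000 held 19 copies with 28 CpG and 1.5% repeated words, and its H3K9me3 was 107 reads in Dicer KO and 76 with Dnmt1 deleted too. The next, at chr6:116192001-116194000, is part of the D6Wsu116e domain and held 12 copies with 95 and 50 reads, and chr2:28248001-28250000 held 11 copies with 80 and 66 reads. H3K9me2 was 3 and 5 reads in the first of these 3 tiles, 2 and 6 in the second and 12 and 12 in the third.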
